A study of Solanum lycopersicum and Arabidopsis thaliana and Cannabis sativa with 28 samples.

Results

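H3K4me3 domains of hemp (Cannabis sativa) seedlings were examined in those chromosome regions that hold few such domains. A domain was kept when it had at least 4 H3K4me3 reads per IgG read (a domain without an IgG read was kept too), spanned less than 4999 bp, and had its midpoint in a 1 Mb bin with fewer than 10 listed domains. These criteria were met by 1330 of the 16331 domains in the hemp table, and bins with fewer than 10 listed domains are called sparse bins. The profiles came from PHILO ChIP-seq, a low-input chromatin immunoprecipitation protocol for plants. Whole 2-week-old seedlings of the hemp variety Otto II Boax, grown without treatment, were profiled with an H3K4me3 antibody (3 libraries) and with IgG as control (3 libraries). The authors merged the 3 libraries of each antibody before calling domains with epic2, which joins neighboring enriched windows. Each domain therefore has a single H3K4me3 count and a single IgG count, and no value has a replicate error.

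H3K4me3 is the trimethylated form of a lysine in the tail of histone H3. In plants it is placed around the start of transcribed genes, where it lies over the nucleosomes at and just downstream of the promoter. It is therefore used as a mark of active promoters, and stretches without it are usually poor in active genes. In many plant genomes such stretches are rich in transposable elements and lie in the interior of the chromosomes around the centromeres. Gene positions and sequence of the cs10 hemp assembly were not used here, so that domains are given by their coordinates and not by gene names.

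The domains were chosen by their read ratio, their width and the number of listed domains in their bin, so that these values are a description and no test was run on them. The ratio is the number of H3K4me3 reads divided by the number of IgG reads, without scaling for the depth of the merged libraries, and serves to compare domains with each other. The sparse bins held 1551 listed domains, of which 1408 (90.8%, Wilson interval 89.2-92.1%) reached the ratio of 4. Over all listed hemp domains 91.6% reached it, and in denser bins 91.7% (interval 91.2-92.1%). The difference between sparse and denser bins was -0.91 percentage points (interval -2.51 to 0.50), and it was not alike on all chromosomes. On chromosomes 1, 2 and 5, which were set apart after their IgG values were seen, it was 2.28 points (interval -0.32 to 4.17). On the other 7 chromosomes it was -2.03 points (interval -4.07 to -0.24). Its sign did not follow this split. The share was lower in sparse bins on 5 of 10 chromosomes, among them chromosome 2 (90.5% against 91.9%). It was higher on chromosomes 7, 8 and 9, as on chromosomes 1 and 5. Chromosome 3 had 85.97% in sparse bins against 92.97% in denser bins. Without chromosome 3 alone, the difference over the remaining chromosomes was 0.27 points (interval -1.43 to 1.73). A total of 143 domains in sparse bins fell short of the ratio, and a further 78 reached it but were too wide. Domains of at least 4999 bp made up 5.35% (interval 4.34-6.59%) of the listed domains in sparse bins and 7.46% (interval 7.05-7.90%) in denser bins. The 1330 domains held 541338 H3K4me3 reads and 43561 IgG reads and covered 2.68 Mb. They thus made up 8.14% of the listed domains, 7.55% of the H3K4me3 reads in listed domains and 6.64% of the IgG reads. Intervals of shares and medians given here are 95% confidence intervals of the share or median itself. They take domains as independent, although all share the same merged libraries, and hold no replicate error. Intervals of the ratio of a single domain cover counting error only.

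Sparse bins were common in the hemp genome. Up to the last listed domain of each chromosome there were 807 bins, with a median of 13 listed domains and at most 103. Of these bins, 286 (35.4%) held fewer than 10, and 13 held none. The 273 sparse bins with a listed domain are those in which the 1330 domains could lie, and all but 3 of them contributed at least 1. The distribution of domains per bin ran without a gap across the limit, with 37 bins at 9 listed domains and 33 bins at 10.

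**Figure D1:**
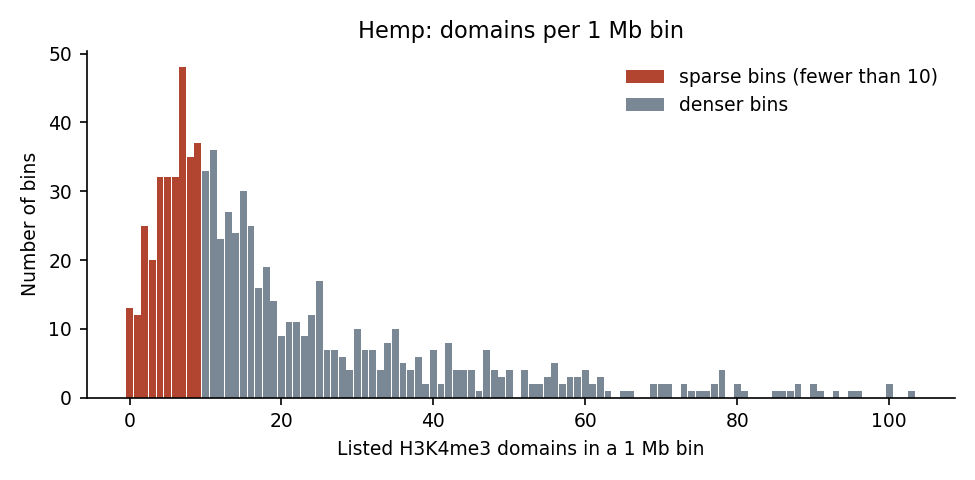
Number of 1 Mb bins (y axis) by the number of listed hemp H3K4me3 domains in the bin (x axis), with sparse bins in red and denser bins in grey. The 286 sparse bins and the others form a continuous distribution, with 37 bins at 9 domains and 33 at 10.

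Pooled over the 10 chromosomes, the domains in sparse bins were spread over the chromosome interior and were fewest near the chromosome ends. When each chromosome was divided into 10 equal parts up to its last listed domain, 967 of the 1330 domains (72.7%) lay in parts 3 to 8, against 35.0% of the 12537 domains of the same ratio and width in denser bins. Each of parts 3 to 8 held 10.5% to 15.3% of the domains in sparse bins. An even spread over the 10 parts would put 10% in each. Part 9 held 11.7% and part 2 held 7.74%. The first and the last part together held 7.82% of the domains in sparse bins and 43.6% of those in denser bins. The ends were not alike, as the first part held 24 domains in sparse bins and the last part 80. Single chromosomes could differ from the pooled pattern. On chromosome 9, 43 of 139 domains in sparse bins lay between 50 and 60 Mb, and the last listed domain ended at 61533399. On chromosome 10, 18 of 64 lay in the first 10 Mb and none beyond 40 Mb. The bin limit used the local number of domains, so that a low share where hemp domains are frequent follows in part from the limit itself.

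**Figure D2:**
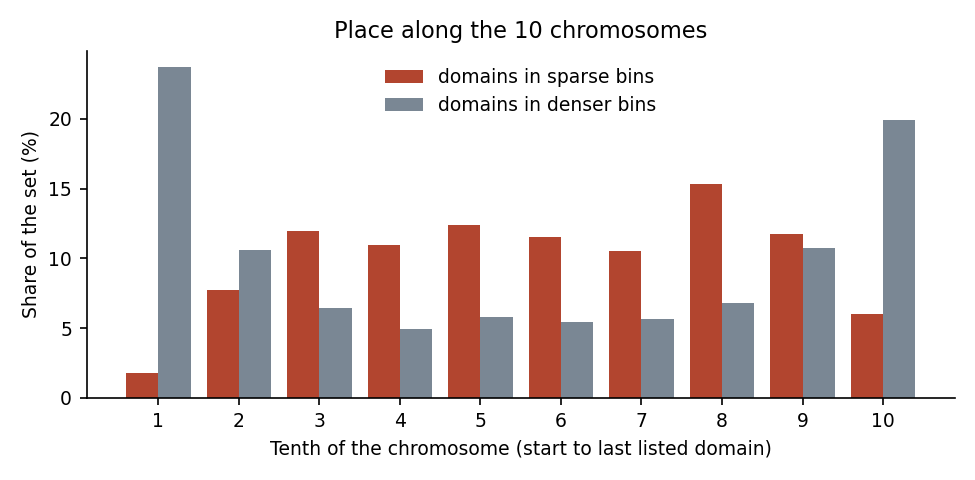
Share of each set (y axis, %) by position in 10 equal parts of the chromosome, from its start to its last listed domain (x axis), over 10 chromosomes, for domains in sparse bins (red) and in denser bins (grey). Pooled over chromosomes, domains in sparse bins lie mostly in the middle parts, and the first part holds 1.80% of them against 23.7% of the domains in denser bins.

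Chromosomes differed in how much of them was sparse. On chromosome 6, 39 of 80 bins (48.8%) were sparse, and 170 of its 1060 listed domains (16.0%) were kept. Chromosomes 9, 3, 8 and 5 followed with 46.8%, 46.3%, 44.6% and 44.3% sparse bins. At the other end, 18.8% of the bins were sparse on chromosome 2, 21.0% on chromosome 7 and 21.5% on chromosome 10, which contributed 71, 74 and 64 domains. The longest run of neighboring sparse bins was 10 Mb, on chromosome 6 from 56 to 66 Mb, and it held 50 listed domains, 45 of them kept. Chromosome 3 had a run of 9 Mb from 66 to 75 Mb with 69 listed domains. Runs of 8 Mb were found on chromosome 5 from 53 to 61 Mb and on chromosome 8 from 41 to 49 Mb, with 31 and 43 listed domains. On chromosome 10 the longest run covered the first 4 Mb, where only 3 domains were listed and 1 was kept.

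Domains in sparse bins lay farther from their neighbors than domains in denser bins. The median distance to the nearest listed domain was 32401 bp (interval 29201-35201 bp) in sparse bins and 6201 bp (interval 6001-6201 bp) in denser bins, a gap that the bin rule favors. A total of 268 domains (20.2%) lay at least 100 kb from any other listed domain, against 1.37% in denser bins, and 15 lay at least 500 kb away. Others had close company, as 220 of the 1330 domains (16.5%, interval 14.6-18.6%) had a neighbor within 5 kb, against 43.1% in denser bins. Distance was at most weakly related to width and ratio. Spearman's rho over the 1330 domains was 0.053 between distance and width and 0.071 between distance and read ratio, which is a description of domains that share the same merged libraries.

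The most remote domain lay at the start of chromosome 10 from 30600 to 33599, and its nearest listed neighbor was 1848 kb away. It held 338 H3K4me3 reads and 45 IgG reads, a ratio of 7.51 (Clopper-Pearson interval 5.49-10.5). The next 2 were on chromosome 1. A domain from 46910600 to 46911399 was 869 kb from its neighbor and held only 42 H3K4me3 reads and 2 IgG reads, a ratio of 21.0 whose interval runs from 5.46 to 179. The other, from 61016800 to 61018199 and 820 kb away from its neighbor, held 456 H3K4me3 reads and 16 IgG reads, a ratio of 28.5 (interval 17.4-50.3). Remote domains could therefore be strong or weak.

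In 12 sparse bins a single domain was listed, and 10 of these domains were kept. Their H3K4me3 reads ranged from 42 to 1402 and their ratios from 4.41 to 34.1. The strongest of them by reads lay on chromosome 4 from 51879200 to 51882999, a domain of 3799 bp with 1402 H3K4me3 reads, 70 IgG reads and no listed neighbor within 358 kb. The weakest by ratio lay on chromosome 5 from 76404600 to 76405199, with 75 H3K4me3 reads and 17 IgG reads, a ratio of 4.41 (interval 2.58-7.97).

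Some sparse bins held their domains in a tight group. Of the 261 sparse bins with at least 2 listed domains, 21 held all of them within 100 kb. The richest was the bin from 87 to 88 Mb on chromosome 4, where 7 domains, all kept, lay within 85.1 kb and held 99 to 1365 H3K4me3 reads. The bins on either side held 42 and 100 listed domains. The only other sparse bin with at least 40 listed domains in both neighboring bins was on chromosome 2 from 92 to 93 Mb, between bins with 95 and 59. Its 2 domains, both kept, held 74 and 65 H3K4me3 reads and no more than 3 IgG reads each, which is 3.58 IgG reads per kb. On chromosome 1, all 5 listed domains of the bin from 19 to 20 Mb lay within 70.4 kb, and each was kept, with 387 to 921 H3K4me3 reads.

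Median width and read ratio in sparse bins lay near those of domains within the same ratio and width limits in denser bins, while the highest values differed. H3K4me3 reads ran from 21 to 1834 in sparse bins and from 21 to 2274 in denser bins, and IgG reads from 0 to 351 in sparse bins and from 0 to 180 in denser bins. The median width was 1799 bp in sparse bins (interval 1799-1999 bp, quartiles 1199 and 2799 bp) and 1999 bp in denser bins (quartiles 1199 and 2799 bp), a difference of 1 window of 200 bp. Widths come in steps of this window, from 199 to 4799 bp in both sets. A median domain held 386 H3K4me3 reads in sparse bins (interval 363-410) and 404 in denser bins (interval 397-410), and 29 IgG reads in sparse bins (interval 27-31) and 32 in denser bins (interval 31-32). The median read ratio was 12.4 in sparse bins (interval 11.8-12.8) and 12.4 in denser bins (interval 12.2-12.5), with domains without an IgG read set to 3 IgG reads. On the log2 scale the medians differed by 0.0055, with an interval from -0.064 to 0.052. Per kb of domain, H3K4me3 reads had a median of 183 in sparse bins and 186 in denser bins, a difference of -3.04 (interval -8.80 to 4.03).

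**Figure D3:**
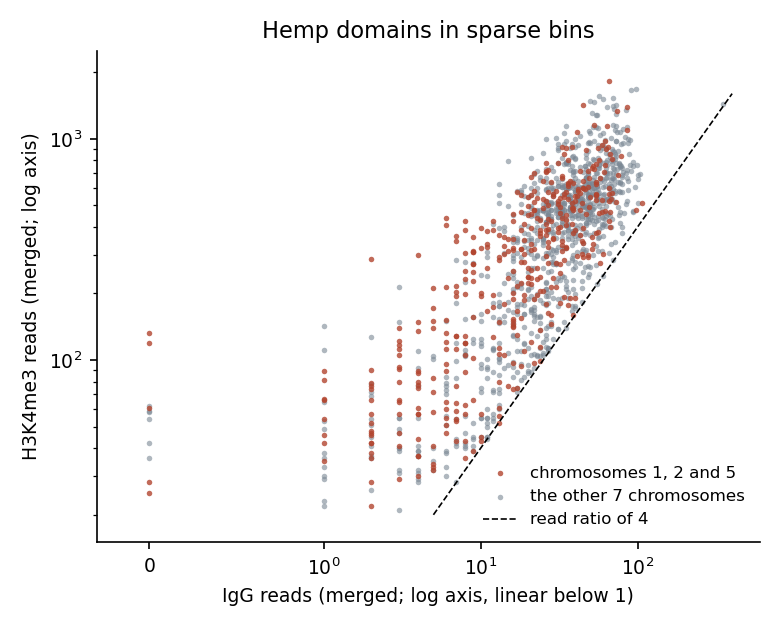
H3K4me3 reads (y axis, log scale) against IgG reads (x axis, log scale, linear below 1) of the 1330 hemp domains in sparse bins, counted in the merged libraries, with domains on chromosomes 1, 2 and 5 in red and on the other chromosomes in grey. The dashed line marks the ratio of 4 that chose the domains, and 1 domain with 351 IgG reads lies far to the right beside it.

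The spread of ratios was also alike. In sparse bins, 22.9% of the domains had a ratio from 4 to below 8, against 22.4% in denser bins. Ratios from 8 to below 16 were found in 45.0% of the domains in sparse bins and 44.2% in denser bins, and ratios from 16 to below 32 in 25.9% and 27.1%. A ratio of at least 32 was found in 5.41% of the domains in sparse bins (interval 4.32-6.76%) and in 5.62% in denser bins (interval 5.23-6.03%). Domains without IgG reads are in none of these classes but are part of the totals behind the shares.

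The domains were also grouped by the number of listed domains in their bin. In bins with 1 to 4 listed domains, 214 domains had a median of 164 H3K4me3 reads per kb (interval 147-189), and in bins with 5 to 9 the median was 185. Medians were 184, 179 and 191 in bins with 10 to 19, 20 to 39 and at least 40 listed domains. The interval of the sparsest class includes the medians 185, 184 and 179, so that a difference in H3K4me3 reads per kb is not resolved from these. IgG reads per kb had a median of 14.6 in bins with 1 to 4 listed domains (interval 13.3-15.3), 16.0 with 5 to 9, 16.1 with 10 to 19, 15.7 with 20 to 39 and 16.7 with at least 40. The median ratio was 13.2 in the sparsest bins (interval 11.7-14.3) and 12.3, 12.2, 12.5 and 12.4 in the others, in order of density. The quartiles of every class overlapped widely.

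**Figure D4:**
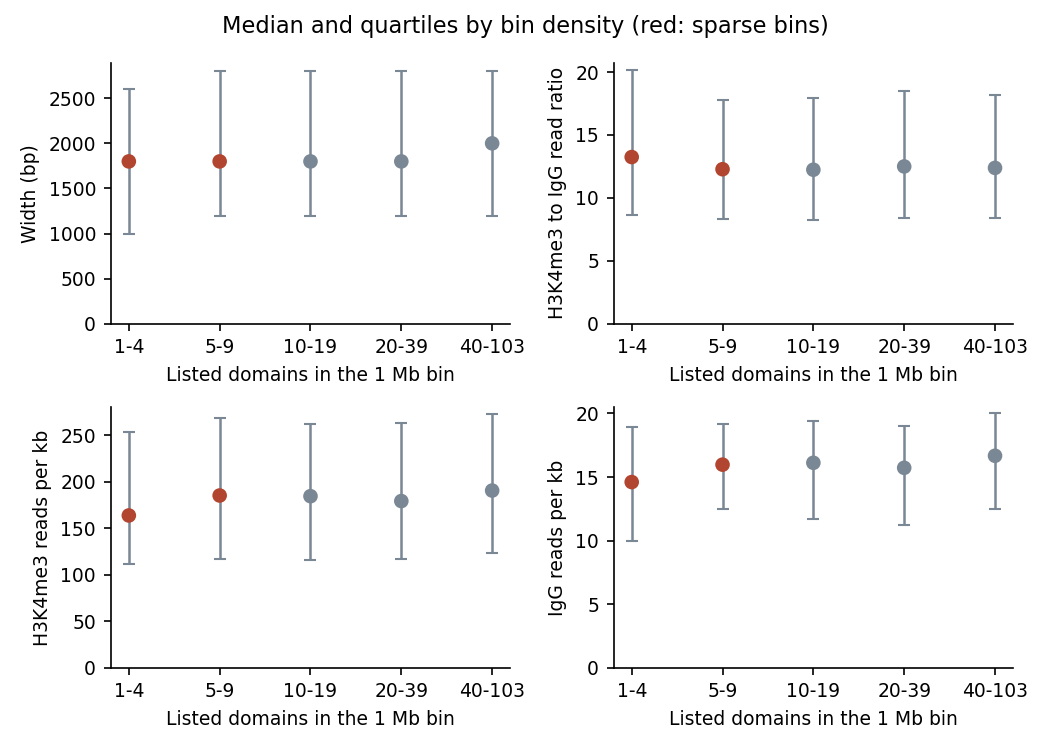
Median (points) and quartiles (bars) of width, read ratio, H3K4me3 reads per kb and IgG reads per kb (y axes) by the number of listed domains in the 1 Mb bin (x axes), for hemp domains within the ratio and width limits. Red points are sparse bins, and the sparsest class, with 164 H3K4me3 (interval 147-189) and 14.6 IgG reads per kb (interval 13.3-15.3), has the lowest median in both panels of reads per kb.

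Among the domains in sparse bins, signal per kb was highest at intermediate widths. The 129 domains of 199 to 599 bp had a median of 54 H3K4me3 reads and 4 IgG reads, or 123 H3K4me3 reads per kb. The 464 domains of 1199 to 1999 bp, the largest class, had a median of 352 H3K4me3 and 25 IgG reads, or 218 H3K4me3 reads per kb. The 219 domains of 3199 to 4799 bp had a median of 661 H3K4me3 and 66 IgG reads, or 172 H3K4me3 reads per kb. The median ratio was 14.8 in the narrowest class, 13.1 at 799 to 999 bp, 13.7 at 1199 to 1999 bp, 12.3 at 2199 to 2999 bp and 9.85 in the widest. In denser bins the medians of these classes were 13.7, 16.0, 14.4, 11.6 and 9.75. IgG reads per kb were 10.0 in the narrowest and 17.2 in the widest class in sparse bins, and 10.0 and 17.5 in denser bins. Ratios of the narrowest domains thus rested on very few IgG reads and have little precision. Their median of 14.8 in sparse bins has an interval of 11.2-18.5, which includes the 13.1 and 13.7 of the next classes. In denser bins the narrowest class lay below the next classes.

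IgG reads in sparse bins differed between chromosomes. The median was 15.7 IgG reads per kb in sparse bins (interval 15.4-16.1) and 16.3 in denser bins (interval 16.1-16.4), a difference of -0.54 (interval -0.86 to -0.12), and it was lower in sparse bins on 8 of 10 chromosomes. The lowest medians belonged to domains on chromosome 2, with 9.17 IgG reads per kb in sparse bins against 15.0 in denser bins, on chromosome 1, with 12.5 against 13.8, and on chromosome 5, with 14.2 against 16.7. On each of the other 7 chromosomes the median in sparse bins lay between 16.3 and 18.0. Median width was 1199 bp in sparse bins against 1799 bp in denser bins on chromosome 2, and 1599 bp against 1999 bp on chromosome 5. On chromosome 1 it was 1799 bp in both. The part of width in these IgG differences was not tested. Chromosome 2 also had the lowest median of H3K4me3 reads per kb, with 128 in sparse bins (interval 109-152) against 166 in denser bins, whereas medians in sparse bins of the other 9 chromosomes lay between 177 and 214. Chromosomes 1, 2 and 5 were singled out after these values were seen. Without them, the difference between sparse and denser bins was -0.17 (interval -0.61 to 0.20), and within them it was -2.28 (interval -3.32 to -1.32).

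**Figure D5:**
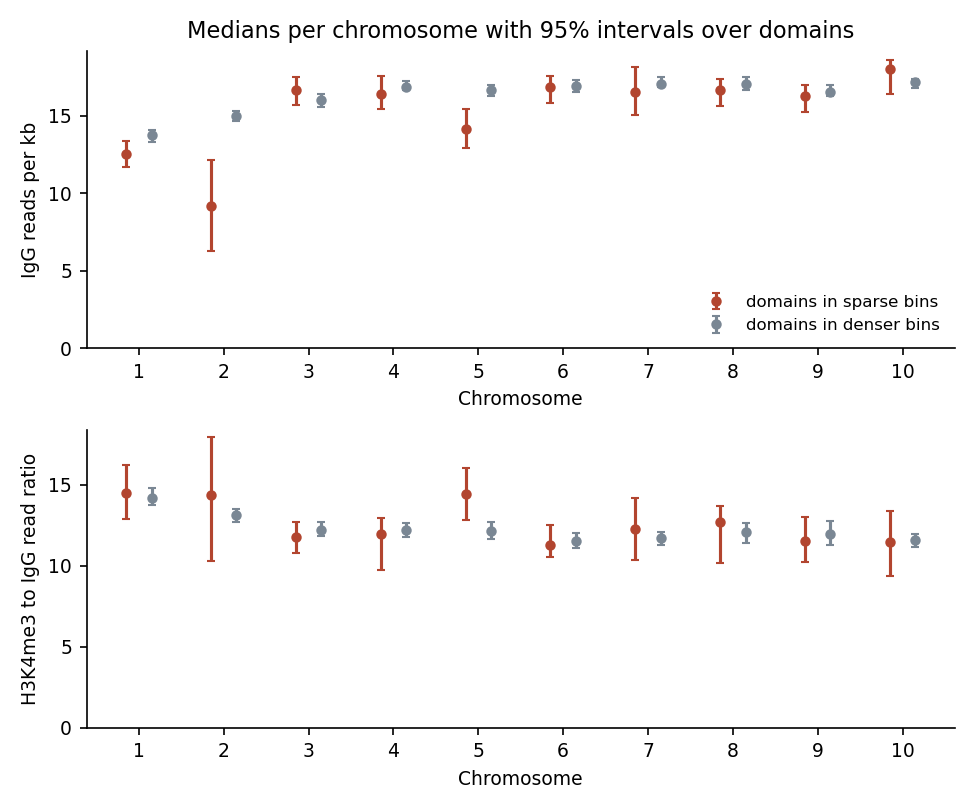
Median IgG reads per kb (top) and median read ratio (bottom) of hemp domains on each of 10 chromosomes (x axis), in sparse bins (red) and denser bins (grey), with 95% intervals over domains. Domains in sparse bins of chromosomes 1, 2 and 5 have 12.5, 9.17 and 14.2 IgG reads per kb, below all other chromosomes, and the highest ratios.

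The read ratio moved in the opposite direction. On chromosomes 1, 2 and 5, the 403 domains in sparse bins had a median ratio of 14.4 (interval 13.4-15.7), against 13.3 in denser bins of these chromosomes. On the other 7 chromosomes, the 927 domains in sparse bins had a median ratio of 11.7 (interval 11.2-12.3), against 11.9 in denser bins. H3K4me3 reads per kb were 168 (interval 152-185) in sparse bins of chromosomes 1, 2 and 5 and 186 (interval 180-197) in sparse bins of the others. Pooled over chromosomes 1, 2 and 5, the higher median ratio thus went with fewer IgG reads per kb and not with more H3K4me3 reads per kb. IgG reads are the denominator of the ratio, and these chromosomes were set apart after their low IgG values were seen. A higher ratio on them therefore follows in part from the split itself. Single chromosomes differed in H3K4me3 reads per kb. Chromosome 1 had a median of 194 in sparse bins (interval 157-218) against 188 in denser bins. On chromosomes 2 and 5 the medians were 128 and 177 in sparse bins, against 166 and 196 in denser bins. The 403 domains were also narrower, with a median of 1599 bp against 1999 bp in sparse bins of the other chromosomes. The part of width in the difference in ratio was not tested. At most 3 IgG reads, the floor used here, were counted in 44 of the 403 domains (10.9%), against 41 of the 927 (4.42%).

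IgG reads per kb differed between stretches of these chromosomes. On chromosome 5 between 50 and 60 Mb, 23 domains in sparse bins held 7.97 IgG and 150 H3K4me3 reads per kb of their summed length, whereas 25 domains between 60 and 70 Mb held 16.7 IgG and 225 H3K4me3 reads per kb. On chromosome 2 between 50 and 60 Mb, 22 domains held 9.87 IgG and 146 H3K4me3 reads per kb. On chromosome 1, values per 10 Mb piece from 30 to 90 Mb lay between 12.3 and 14.4 IgG reads per kb, and 12 domains between 10 and 20 Mb held 18.3. Low values there were not particular to sparse bins, as all listed domains of chromosome 1 held 12.0 IgG reads per kb between 40 and 50 Mb, 11.9 between 70 and 80 Mb and 11.7 between 80 and 90 Mb. All listed domains of chromosome 3 held 13.9 IgG reads per kb between 80 and 90 Mb and 14.0 between 90 and 100 Mb, although the 8 domains in sparse bins there held 18.5. Over the 37 pieces of the other 7 chromosomes with at least 10 domains in sparse bins, the range was 15.3 to 20.7 IgG reads per kb. These values rest on merged libraries, and whether each replicate shows them was not tested.

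The domain with the most H3K4me3 reads in sparse bins lay on chromosome 5 from 6738800 to 6742599. It held 1834 H3K4me3 reads and 66 IgG reads over 3799 bp, a ratio of 27.8 (interval 21.7-36.1). Next in reads was a domain on chromosome 7 from 36915000 to 36919799 with 1674 H3K4me3 and 97 IgG reads, a ratio of 17.3 (interval 14.1-21.4). A domain on chromosome 3 from 18611400 to 18615799 held 1668 H3K4me3 and 91 IgG reads, a ratio of 18.3 (interval 14.8-22.9).

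Among domains with at least 4 IgG reads, the highest ratios were found on chromosomes 1, 2 and 5. The domain on chromosome 1 from 69901600 to 69902399 held 298 H3K4me3 and 4 IgG reads, a ratio of 74.5 (interval 28.8-275). On chromosome 2 from 50377600 to 50379399, 438 H3K4me3 and 6 IgG reads gave a ratio of 73.0, with a lower limit of 33.3. On chromosome 5 from 56438600 to 56440399, 406 H3K4me3 and 6 IgG reads gave a ratio of 67.7 (interval 30.8-185). The intervals of the 3 ratios overlap, so that counting error does not separate them.

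No IgG read was counted in 11 of the 1330 domains (0.83%), against 0.70% in denser bins. Their H3K4me3 reads ranged from 25 to 132 and their widths from 199 to 1799 bp. The domains with the most reads were on chromosome 5, from 58041200 to 58042599 with 132 H3K4me3 reads and from 56683000 to 56684399 with 120. Set against the 3 reads per domain that a count of 0 allows, their ratios were 44 and 40. With counting error included, the lower limits of both ratios lay below these values. On chromosome 8 from 47784800 to 47785199, 62 H3K4me3 reads in 399 bp gave a ratio of 20.7 in the same way, with a lower limit of 16.3.

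The domain with the most IgG reads stood far apart from the rest. On chromosome 6 from 12029600 to 12034399, 351 IgG reads and 1443 H3K4me3 reads were counted, which is 73.1 IgG reads per kb and a ratio of only 4.11 (interval 3.66-4.63). Its neighbor from 12070800 to 12074599 held 182 IgG and 552 H3K4me3 reads, 47.9 IgG reads per kb, and missed the limit with a ratio of 3.03. The other 4 listed domains of this bin had 10.9 to 16.6 IgG reads per kb. The next highest IgG counts were 107 on chromosome 1 from 48409200 to 48413599, with 514 H3K4me3 reads, and 104 on chromosome 10 from 30901400 to 30905799, with 690 H3K4me3 reads.

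The domains nearest to each limit are given here with no test. The 4 domains just inside the ratio limit had a ratio of 4.00, with 28 to 140 H3K4me3 and 7 to 35 IgG reads. The 3 just outside had ratios from 3.95 to 3.98, with 79 to 385 H3K4me3 and 20 to 97 IgG reads. In sparse bins, 12 domains were 4799 bp wide, the largest width inside the limit, with ratios from 4.11 to 17.3, and among them those on chromosome 2 from 35165000 to 35169799, chromosome 2 from 60632400 to 60637199 and chromosome 3 from 24305400 to 24310199 held 568, 688 and 1018 H3K4me3 reads. Just outside, 18 domains of 4999 bp that reached the ratio limit had ratios from 4.80 to 16.8. For the bin limit, the 289 domains in bins with 9 listed domains had a median ratio of 12.2 and a median width of 1999 bp, and the 280 domains in bins with 10 had a median ratio of 13.2 and a median width of 1799 bp.

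The same criteria applied to the H3K4me3 domains of untreated 2-week-old Micro-Tom tomato seedlings gave 1111 of 18758 domains, set here beside the hemp values. They came from other libraries and the SLM_r2.0 assembly, so that levels are not compared. The median width in sparse bins was 1799 bp in hemp and 1599 bp in tomato, against 1999 bp and 1799 bp in denser bins. The median distance to the nearest listed domain was 32401 bp in hemp and 39001 bp in tomato. The ratio of 4 was reached by 90.8% of the listed domains in sparse bins and 91.7% in denser bins in hemp, and by 69.4% in sparse bins and 77.5% in denser bins in tomato. As the ratio is not scaled for depth, a ratio of 4 need not be the same cut in both species. These shares therefore compare bins within a species only.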

How the data were processed

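H3K4me3 and IgG PHILO ChIP-seq libraries of hemp (3 each) were analysed through the domain table that the authors deposited. The authors aligned reads with Bowtie2 (version 2.4.1) to cs10, merged the 3 replicates of each antibody, and called domains with epic2 (version 0.0.52, named SICER in the submitters' processing notes) with merged IgG as control. Window, gap, duplicate and mapping quality settings are not given in the sources used here. Fragmentation for hemp is given as MNase digestion in the study's text and as sonication in the sample protocol. The deposited counts are whole reads per domain in each merged library, without normalization. The FDR, a q-value of the domain call that the authors deposited, was at most 0.05 and served only for an alternative. Deposited fold changes were not used. The H3K9ac table of tomato was not used here, and the Arabidopsis libraries were not analysed.

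Width is end minus start, coordinates are as deposited, and bins were counted over all listed domains. Comparison domains met the same ratio and width limits in bins with at least 10 listed domains. Shares have 95% Wilson intervals, medians binomial intervals, differences of medians intervals combined from these, and ratios of single domains Clopper-Pearson intervals. Reads carry no molecular identifiers. Named domains are those with the most H3K4me3 or IgG reads, the widest, the highest ratio, the most remote, those without IgG reads, and those at each limit. Other domains and bins were named after their values were seen. The domains and these rules were chosen with earlier results of these data known. The functions were tested on simulated domains. Tables and intervals were made with SciPy 1.17.1, NumPy 2.4.6 and pandas 2.3.3, and plots with matplotlib 3.10.9, all under Python 3.11.15.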

Additional observations from a re-analysis of the deposited data

How the results depend on the processing

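No paired analysis was possible because the replicates of each antibody were merged before deposit, and for the same reason no replicate could be left out. Leaving out any single chromosome moved no value beyond its interval, with 1106 to 1266 domains left. The median width and its difference from denser bins moved by no more than 1 window of 200 bp in every alternative tried. A limit of fewer than 5 listed domains per bin left 214 domains, with a median ratio of 13.2, 164 H3K4me3 and 14.6 IgG reads per kb. Differences from denser bins were then 0.099 in log2 ratio (interval -0.078 to 0.207) and -22.0 in H3K4me3 reads per kb (interval -39.0 to 3.66). In IgG reads per kb the difference was -1.65 (interval -2.92 to -0.93). A limit of fewer than 20 gave 4237 domains. With bins of 2 Mb, IgG reads per kb had a median of 15.1 and a difference of -1.12. A ratio of at least 2 gave a median ratio of 11.5 and 169 H3K4me3 reads per kb, and a ratio of at least 8 gave 14.3 and 215. With more than 3 IgG reads required, the median was 16.3 IgG reads per kb. When bins were counted only over domains that reached the ratio of 4, the share reaching it was lower by 3.04 percentage points in sparse bins (-3.04), against -0.91 as reported. Such a count moves bins rich in domains under the ratio into the sparse set. This lower share thus follows in part from the count itself and is no check of the reported one. Separating chromosomes 1, 2 and 5 was chosen after seeing the data. Without them, the median ratio was 11.7, the median 16.7 IgG reads per kb, and the difference in the share reaching the ratio -2.03 percentage points. With only these chromosomes, 403 domains had a median ratio of 14.4, 168 H3K4me3 and 12.7 IgG reads per kb, with differences from denser bins of 0.12, -13.0 and -2.28, and 2.28 percentage points in the share reaching the ratio. The cause of these shifts was not tested. The effect of counting gene starts near, rather than inside, a domain was not run, as gene positions were not used here. The IgG counts limit precision, since 85 of the 1330 domains held at most 3 IgG reads.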
